A study of Mus musculus with 18 samples.

Results

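A set of 10 genes of the hepatic acute phase response was followed in bulk RNA sequencing libraries of mouse liver. They are the serum amyloid A genes Saa1, Saa2, Saa3 and Saa4, the orosomucoid genes Orm1, Orm2 and Orm3, the lipocalin gene Lcn2, and the haptoglobin and hemopexin genes Hp and Hpx. The genes were named by family and chosen by symbol, and all 10 were found, each on 1 row, among the 56691 genes of the table. All 10 also passed the filter on low counts, which 14595 genes of the table passed. The 18 libraries came from the liver of wild-type (WT) C57BL/6 mice in 3 groups of 6. Mice of the IR-Ori group received oridonin, a plant diterpenoid, and had the vessels and duct of the portal triad closed with a clip for 1 h and then reopened for 6 h of reperfusion. The IR group had the same ischemia and reperfusion without oridonin. The sham group had anesthesia and a laparotomy with no clip, so that all 3 groups share the opened abdomen. The clip made the median and left lobes ischemic, and the labels do not say which lobe each library came from. No source used here gives the dose, route or timing of oridonin or the age or sex of the mice. The labels number the libraries of a group from 1 to 6 without saying that each is a separate mouse, so p-values measure the spread between these libraries.

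The acute phase response is the change in the proteins that the liver secretes after tissue injury or infection. Interleukin-1 and tumor necrosis factor act on hepatocytes through NF-kB, and cytokines of the interleukin-6 family act through gp130, JAK kinases and STAT3, together with C/EBP factors. Serum amyloid A proteins travel on high density lipoprotein, orosomucoids bind basic and lipophilic molecules in plasma, lipocalin 2 binds bacterial siderophores that carry iron, haptoglobin binds free hemoglobin and hemopexin binds free heme.

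Total counts ranged from 12770586 to 16536186 per library in IR-Ori, from 12449529 to 16625908 in IR and from 12755980 to 19798188 in sham. Mitochondrially encoded genes took 14.1% to 32.0% of the counts in IR-Ori, 6.52% to 42.9% in IR and 10.3% to 42.8% in sham. Levels below are FPKM (counts scaled by exonic length and library total) as the authors deposited them, and their total includes the mitochondrial counts. Fold changes come from edgeR on the deposited counts, with p-values adjusted over 14595 genes by the method of Benjamini and Hochberg, and a gene is called where the adjusted p is under 0.05. The tissue label was checked with 9 hepatocyte markers, which summed to 26847 to 41891 FPKM in IR-Ori, 24051 to 33431 FPKM in IR and 14284 to 49006 FPKM in sham, and none of the 9 was called in any comparison.

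In the clipped and reperfused liver without oridonin, 5 of the 10 genes rose relative to sham: Saa3, Orm1, Orm2, Orm3 and Lcn2. None of the 10 fell. Over all genes tested, 5.52% were called higher and 2.36% were called lower in IR than in sham. At an unadjusted p under 0.05, 7 of the 10 were higher, Saa1 and Saa2 being added, beside 13.6% of all genes tested. The IR and sham libraries did not overlap in FPKM, IR being higher, for 3 of the 10 (Saa3, Orm1 and Orm2), against 2.04% of all genes tested. For Orm1 this rests on an FPKM total that includes mitochondrial counts. Per count on nuclear genes, Orm1 in sham 6 lay above IR 5 and IR 6. The median log2 fold change of the 10 genes in IR against sham was 2.204, beside 0.0032 over all genes tested, and it was positive for 9 of the 10. In bulk tissue, a change in the number of cells of a type and a change in the RNA per cell cannot be told apart. With oridonin, none of the 10 genes was called higher or lower in IR-Ori than in IR. That comparison called 0.596% of all genes higher and 3.01% lower.

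**Figure D1:**
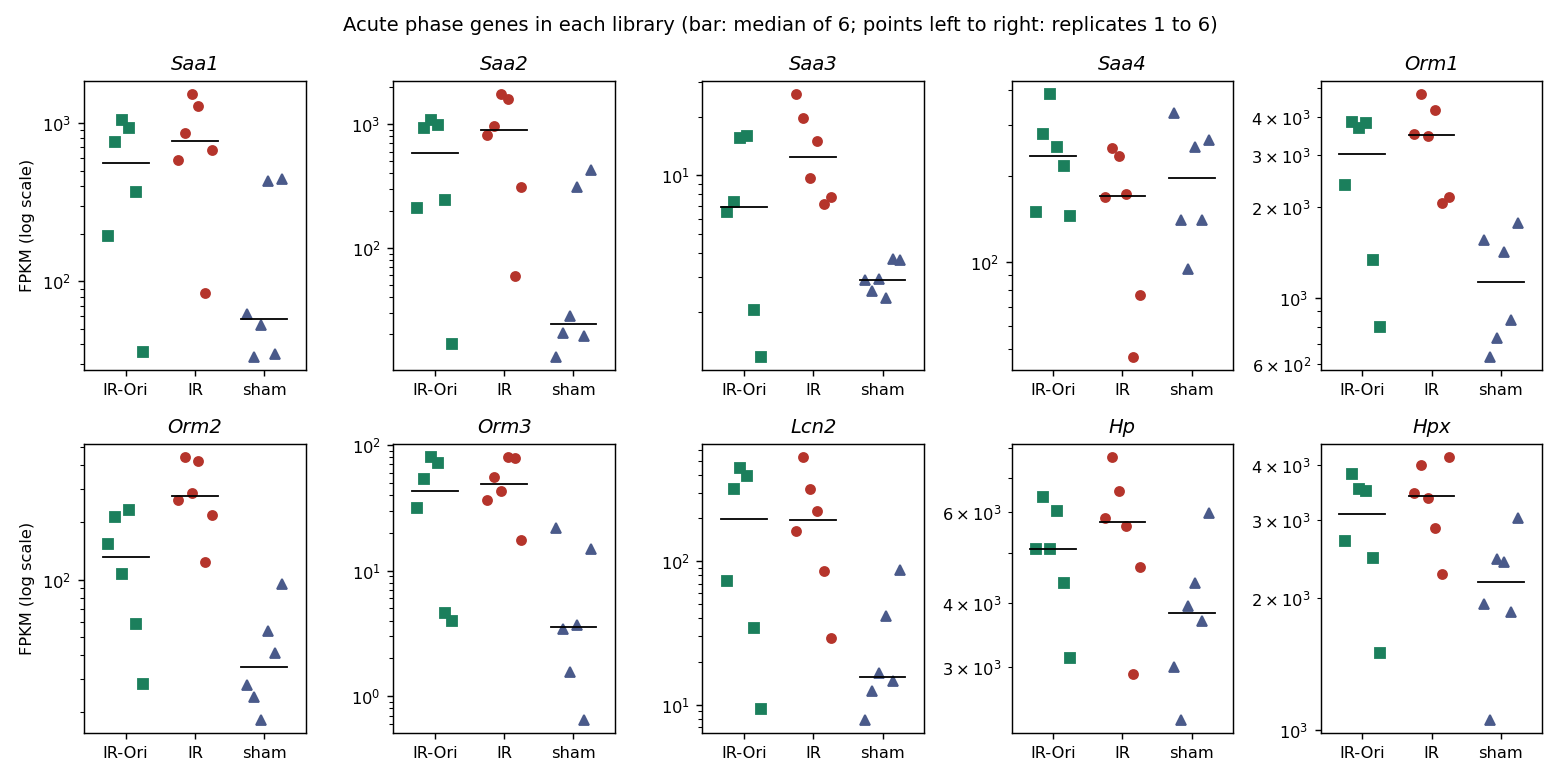
Each panel shows 1 gene, with FPKM on a log axis for the 6 libraries of IR-Ori, IR and sham, drawn from replicate 1 at the left to replicate 6 at the right of a group, and a bar at the group median. In FPKM all 6 IR libraries lie above all 6 sham libraries for Saa3, Orm1 and Orm2, for Orm1 only with mitochondrial counts in the total. The IR-Ori libraries spread across the range of both other groups for most genes.

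The SAA genes lie together on chromosome 7 of build GRCm39, from Saa3 (chr7:46361422-46365124, minus strand) through Saa4 (chr7:46377422-46382027, minus strand) and Saa1 (chr7:46389921-46392404, minus strand) to Saa2 (chr7:46401214-46403737, plus strand). The promoters of Saa1 and Saa2, shown because these neighbors moved together most closely, are RefSeq windows on build GRCm38.p6 from 250 bases before to 50 bases after the start, chr7:46742931-46743230 on the minus strand and chr7:46751583-46751882 on the plus strand. Capitals mark the bases that differ between them, with the 2 that have no partner in the alignment.
Saa1: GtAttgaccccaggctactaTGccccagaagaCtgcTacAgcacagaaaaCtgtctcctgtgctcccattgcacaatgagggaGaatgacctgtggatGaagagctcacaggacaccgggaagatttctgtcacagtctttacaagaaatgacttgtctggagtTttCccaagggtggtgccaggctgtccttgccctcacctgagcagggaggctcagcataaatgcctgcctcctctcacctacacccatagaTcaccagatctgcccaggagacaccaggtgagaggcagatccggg
Saa2: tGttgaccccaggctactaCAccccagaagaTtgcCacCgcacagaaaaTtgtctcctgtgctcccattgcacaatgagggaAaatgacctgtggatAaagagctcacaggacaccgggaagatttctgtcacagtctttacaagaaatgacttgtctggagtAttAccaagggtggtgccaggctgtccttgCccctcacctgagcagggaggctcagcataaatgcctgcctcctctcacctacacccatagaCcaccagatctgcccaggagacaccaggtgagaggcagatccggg
The windows were identical at 287 of 299 aligned bases (96.0%). Counted from 1 at the 5′ end of the Saa1 window and with the Saa1 base given first, 12 substitutions were found, among them G84A, G99A, T165A, C168A and T256C.

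Saa1 and Saa2, the main liver-made serum amyloid A proteins that rise in plasma during an acute phase, showed high and widely spread levels after ischemia. Saa1 had 35.6, 561 and 1037 FPKM (lowest, median and highest library) in IR-Ori, 83.8, 769 and 1519 FPKM in IR, and 33.2, 57.4 and 442 FPKM in sham. Among the IR libraries, 5 of 6 lay above every sham library, and IR 5 lay within the sham range. In sham, replicates 4 and 6 had 430.0 and 442 FPKM of Saa1, and the other 4 libraries had 33.2 to 61.9 FPKM. The log2 fold change in IR against sham was 2.17 ± 0.82 (SE), with an adjusted p of 0.112 in edgeR, so Saa1 was not called. Saa2 had 16.6, 589.6 and 1083 FPKM in IR-Ori, 59.2, 893 and 1746 FPKM in IR, and 13.1, 24.2 and 426 FPKM in sham. Its log2 fold change in IR against sham was 2.66 ± 1.01, with an adjusted p of 0.112, and with DESeq2 in place of edgeR the adjusted p was 0.0489. Of the 36 pairs of an IR and a sham library, IR was higher in 34 for Saa1 and in 33 for Saa2.

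Saa2 made up a varying part of the summed Saa1 and Saa2 FPKM. It took 31.8% to 55.3% of the sum in IR-Ori, 31.6% to 58.2% in IR and 17.5% to 49.1% in sham, with medians of 51.2%, 53.2% and 36.9%. The ranges overlap in all 3 groups, and this share was not tested. The table divides the counts of Saa1 and Saa2 by exonic sizes of 2478 and 2518 bases, 4.07 and 3.86 times their longest coding transcripts in GENCODE M21 (609 and 652 bases), so their FPKM are low per messenger RNA. Their transcripts were 94.4% identical over the aligned bases, and 0.374% of the 75-base windows of the Saa1 transcript also occur in Saa2. No source used here says how reads that match both were counted, so the split between Saa1 and Saa2 is uncertain.

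Saa3, which in mice is made mainly outside the hepatocyte by macrophages, adipocytes and epithelia, was the least abundant SAA gene and rose above the whole sham range. It had 1.17, 6.93 and 16.0 FPKM in IR-Ori, 7.10, 12.4 and 26.1 FPKM in IR, and 2.34, 2.93 and 3.73 FPKM in sham. The IR and sham ranges do not touch, while the IR-Ori libraries reached both below the lowest sham library (replicates 5 and 6) and up to 16.0 FPKM. Saa3 rose in IR against sham by a log2 fold change of 2.24 ± 0.53 (adjusted p = 0.0139, edgeR). The call held with each of the 18 libraries left out in turn, with adjusted p-values of 0.00729 to 0.0364. Among the 6 IR and sham libraries with a mitochondrial share of 15% or more the adjusted p was 0.218, and among the 6 under 15% it was 0.0185. Each fit by share also held the IR-Ori libraries of that share, IR-Ori 5 alone under 15%. In IR-Ori the Saa3 level averaged 8.09 ± 6.40 FPKM, against 14.2 ± 7.55 FPKM in IR (SD, n = 6 each).

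Saa4, the constitutive member of the family, did not follow the others. It had 145, 235 and 386 FPKM in IR-Ori, 46.7, 171 and 249 FPKM in IR, and 94.6, 197 and 332 FPKM in sham. All 3 ranges overlap, and 2 IR libraries (replicates 5 and 6) lie below every sham library. The log2 fold change in IR against sham was -0.43 ± 0.41 (adjusted p = 0.566, edgeR), the only negative value among the 10 genes in that comparison. In the 6 libraries with a mitochondrial share of 15% or more it was 0.18, and in the 6 libraries under 15% it was -1.30, with adjusted p-values of 0.878 and 0.189.

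The orosomucoid genes lie side by side on the plus strand of chromosome 4 (GRCm39), Orm1 at chr4:63262797-63266400, Orm3 at chr4:63274399-63277748 and Orm2 at chr4:63280686-63284115. RefSeq promoter windows on GRCm38.p6 are shown for Orm2 (chr4:63362199-63362498, plus strand), which differed most between IR and sham in adjusted p, and for its neighbor Orm3 (chr4:63355908-63356207, plus strand). Capitals mark matches to the C/EBP-type motif TTNNGNAA on either strand, where N is any base.
Orm2: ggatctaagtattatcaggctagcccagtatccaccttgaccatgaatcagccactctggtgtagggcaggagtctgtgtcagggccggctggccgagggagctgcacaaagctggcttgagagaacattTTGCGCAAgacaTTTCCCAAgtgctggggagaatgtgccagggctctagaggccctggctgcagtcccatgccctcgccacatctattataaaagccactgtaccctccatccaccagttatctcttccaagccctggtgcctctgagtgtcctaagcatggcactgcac
Orm3: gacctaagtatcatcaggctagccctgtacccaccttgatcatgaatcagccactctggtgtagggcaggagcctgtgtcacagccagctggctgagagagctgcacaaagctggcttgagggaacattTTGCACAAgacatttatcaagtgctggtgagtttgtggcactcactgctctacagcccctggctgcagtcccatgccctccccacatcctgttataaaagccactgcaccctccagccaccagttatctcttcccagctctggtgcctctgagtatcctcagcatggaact
These windows were 89.2% identical over 295 aligned bases. Orm2 holds 2 matches and Orm3 holds 1, at about the same distance before the start.

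Orm1 was the dominant orosomucoid transcript and rose after ischemia and reperfusion. Orm1 had 799.5, 3020.1 and 3845 FPKM in IR-Ori, 2071, 3488 and 4773 FPKM in IR, and 633, 1130.3 and 1778 FPKM in sham. Every IR library lay above every sham library, and in IR-Ori replicates 5 and 6 lay within the sham range. The log2 fold change in IR against sham was 1.47 ± 0.40 (adjusted p = 0.0296, edgeR). Without sham 2, sham 3, sham 5 or IR 4, the adjusted p was 0.0600, 0.0655, 0.0683 or 0.0654, and the call was lost.

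Orm2 had the smallest p of the 10 genes in IR against sham. It had 28.2, 131 and 232 FPKM in IR-Ori, 124, 274 and 442 FPKM in IR, and 18.3, 34.5 and 94.4 FPKM in sham. The IR and sham ranges do not touch, and the IR-Ori libraries span from within the sham range to within the IR range. Orm2 rose in IR against sham by a log2 fold change of 2.68 ± 0.50 (adjusted p = 0.00353, edgeR), and the call held with each of the 18 libraries left out, with adjusted p-values up to 0.0112. It was lost among the 6 IR and sham libraries with a mitochondrial share of 15% or more (adjusted p = 0.157, edgeR) and held among the 6 under 15% (adjusted p = 0.0196, edgeR). Relative to Orm1 in the same library, Orm2 FPKM came to 2.93% to 6.51% in IR-Ori, 6.00% to 10.2% in IR and 1.79% to 5.31% in sham. This ratio was thus higher in every IR library than in every sham library, and it overlapped between IR-Ori and both other groups; it was not tested. The Orm1 and Orm2 transcripts are 91.0% identical and share 13.8% of their 75-base windows, so the assignment of reads between them is uncertain.

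Orm3 was the least abundant orosomucoid. It had 3.95, 42.6 and 80.2 FPKM in IR-Ori, 17.5, 49.0 and 80.2 FPKM in IR, and 0.65, 3.58 and 21.8 FPKM in sham. In IR 5 of 6 libraries lay above every sham library, and in IR-Ori 4 libraries did while replicates 5 and 6 had 4.58 and 3.95 FPKM. The log2 fold change in IR against sham was 2.59 ± 0.77 (adjusted p = 0.0443, edgeR). That call was lost with any 1 of 11 libraries left out (sham 2 to sham 6, IR 2, IR 4, IR 5, IR-Ori 1, IR-Ori 2 or IR-Ori 4), with adjusted p-values from 0.0503 to 0.0926.

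**Figure D2:**
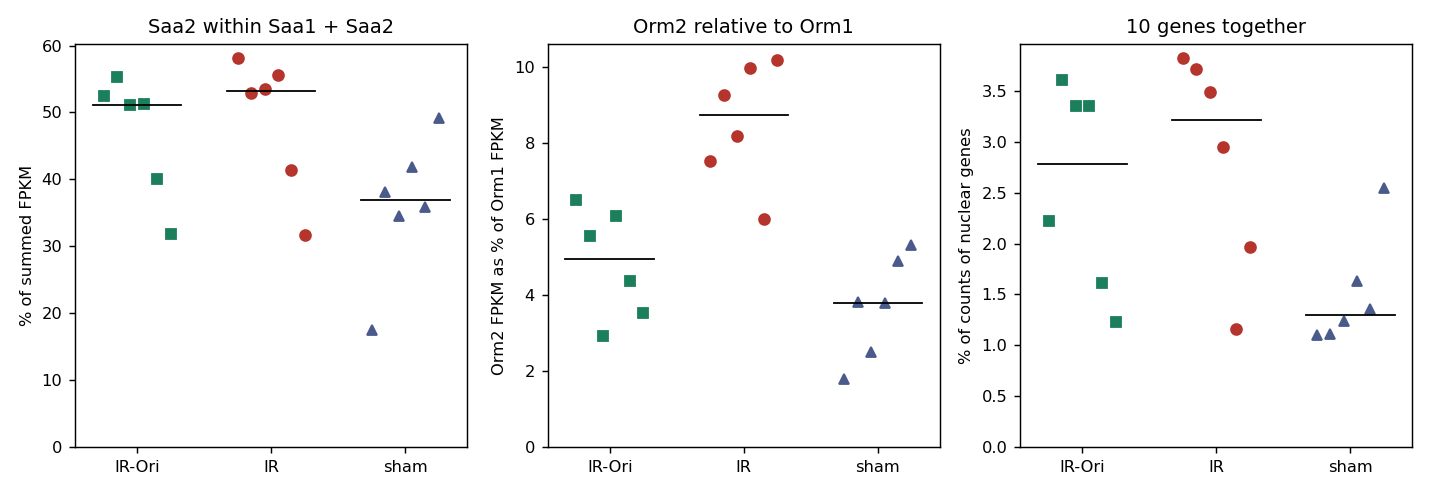
Points are single libraries of IR-Ori, IR and sham and bars are group medians, for Saa2 as a percentage of the summed Saa1 and Saa2 FPKM (left), Orm2 FPKM as a percentage of Orm1 FPKM (middle) and the counts of the 10 genes as a percentage of all counts on nuclear genes (right). The Orm2 to Orm1 ratio is 6.00% to 10.2% in IR and 1.79% to 5.31% in sham, without overlap, and the other measures overlap between all groups.

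Lcn2 lies on chromosome 2 (chr2:32274645-32278264, minus strand, GRCm39). Its promoter window (RefSeq, GRCm38.p6, chr2:32387690-32387989, minus strand) and that of Saa3 (chr7:46715627-46715926, minus strand) are shown because both genes can be made by cells other than hepatocytes. Capitals again mark matches to TTNNGNAA on either strand.
Lcn2: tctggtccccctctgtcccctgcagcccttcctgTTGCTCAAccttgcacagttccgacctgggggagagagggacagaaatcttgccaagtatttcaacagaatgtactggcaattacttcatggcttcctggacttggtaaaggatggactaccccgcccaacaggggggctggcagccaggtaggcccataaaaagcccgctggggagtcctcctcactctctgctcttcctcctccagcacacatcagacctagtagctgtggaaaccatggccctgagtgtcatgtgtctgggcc
Saa3: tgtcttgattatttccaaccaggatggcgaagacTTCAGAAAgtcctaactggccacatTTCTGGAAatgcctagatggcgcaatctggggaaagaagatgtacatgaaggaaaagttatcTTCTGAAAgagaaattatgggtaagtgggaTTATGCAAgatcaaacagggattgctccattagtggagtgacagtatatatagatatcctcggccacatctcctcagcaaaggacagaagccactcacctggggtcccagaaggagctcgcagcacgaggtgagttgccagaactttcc
Saa3 holds 4 such matches and Lcn2 holds 1. Promoter windows were found for 8 of the 10 genes, all but Orm1 and Hp. The motif TTNNGNAA occurred in all 8 windows and in 40.7% of the 32851 RefSeq windows of mouse genes. The 8 windows are not separate cases, since those of Saa1 and Saa2 are 96.0% identical and those of Orm2 and Orm3 89.2%. An NF-kB-type motif, GGG and CC with any 5 bases between them, occurred in 4 of the 8 (Saa1, Saa2, Saa4 and Lcn2) and in 50.8% of all windows. The STAT-type motif TTCNNNGAA occurred in 0 of the 8 and in 8.30% of all windows. All were searched on both strands, and no match of different motifs overlapped. Saa1 has a further C/EBP-type match at bases 165 to 172 that Saa2 lacks, and T165A and C168A lie in it. A match is a description of the letters in these windows and does not show binding.

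Lcn2 rose in IR against sham, with a wide spread in each group. It had 9.28, 197 and 446 FPKM in IR-Ori, 29.0, 194 and 535 FPKM in IR, and 7.86, 15.7 and 87.6 FPKM in sham. In IR, 4 of 6 libraries lay above every sham library, and replicates 5 and 6 had 85.7 and 29.0 FPKM. The log2 fold change in IR against sham was 2.78 ± 0.85 (adjusted p = 0.0490, edgeR), just past the threshold, and limma on log2(FPKM + 1) gave an adjusted p of 0.0658. With any 1 of 14 of the 18 libraries left out the call was lost, at adjusted p-values from 0.0519 to 0.101, and it held only without IR 6, sham 6, IR-Ori 5 or IR-Ori 6. The exonic size of Lcn2 in the table, 2623 bases, is 2.87 times its longest coding transcript.

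Hp and Hpx, the scavengers of hemoglobin and heme, had high levels in every group and were not called in any comparison. Hp (chr8:110301760-110305804, minus strand) had 3118, 5088 and 6426 FPKM in IR-Ori, 2905, 5737 and 7679 FPKM in IR, and 2370.4, 3813 and 5986 FPKM in sham. Hpx (chr7:105240820-105249344, minus strand) had 1497, 3095 and 3823 FPKM in IR-Ori, 2259, 3409 and 4174 FPKM in IR, and 1055, 2172 and 3026 FPKM in sham. All 3 groups overlap for both genes. In IR against sham the log2 fold change was 0.47 ± 0.31 for Hp (adjusted p = 0.375) and 0.63 ± 0.31 for Hpx (adjusted p = 0.220), both from edgeR, and neither was called. Together Hp and Hpx took 56.7% to 86.8% of the counts of the 10 genes in IR-Ori, 53.0% to 76.6% in IR and 74.5% to 90.6% in sham.

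Ordered by median FPKM in IR-Ori, the genes ran from Hp (5088), Hpx (3095) and Orm1 (3020.1) through Saa2 (589.6), Saa1 (561), Saa4 (235), Lcn2 (197), Orm2 (131) and Orm3 (42.6) to Saa3 (6.93). By median FPKM in IR they ran from Hp (5737) through Orm1 (3488), Hpx (3409), Saa2 (893), Saa1 (769), Orm2 (274), Lcn2 (194), Saa4 (171) and Orm3 (49.0) to Saa3 (12.4). Neighbors in the IR order overlapped in their IR libraries except Hpx and Saa2. In sham the order ran from Hp (3813), Hpx (2172) and Orm1 (1130.3) through Saa4 (197), Saa1 (57.4), Orm2 (34.5), Saa2 (24.2), Lcn2 (15.7) and Orm3 (3.58) to Saa3 (2.93), and neighbors overlapped except Orm1 and Saa4. Saa4 was below Saa1 and Saa2 by the IR median and above both by the sham median. The exonic sizes that lower the FPKM of Saa1, Saa2 and Lcn2 bear on their place in these orders. Saa3 has an exonic size of 2606 bases, and its coding transcripts run from 555 to 2200 bases, so its place below Orm3 is uncertain too. Counts of the 10 genes summed to 1.23% to 3.61% of all counts on nuclear genes in IR-Ori (median 2.79%), 1.16% to 3.83% in IR (median 3.22%) and 1.10% to 2.55% in sham (median 1.30%).

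Between IR-Ori and IR, the comparison that bears on oridonin, none of the 10 genes passed the threshold. By edgeR, Orm2 alone had an unadjusted p under 0.05 and was lower in IR-Ori than in IR, 1 of 10 genes, while 14.4% of all genes tested were lower at that p. DESeq2 and limma on log2(FPKM + 1) also called 0 of the 10. The median log2 fold change of the 10 genes in IR-Ori against IR was -0.25, beside -0.00017 over all genes tested, and 2 of the 10 (Saa4 and Lcn2) had positive values. Orm2 averaged 132 ± 82.4 FPKM in IR-Ori and 292 ± 121 FPKM in IR (SD, n = 6 each). Its log2 fold change was -1.10 ± 0.48, with a 95% interval from -2.09 to -0.11, an unadjusted p of 0.0319 and an adjusted p of 0.167 in edgeR. IR-Ori was higher in 4 of the 36 pairs of libraries. Saa3 had a log2 fold change of -0.81 ± 0.50 (interval -1.87 to 0.24, adjusted p = 0.319), and IR-Ori was higher in 9 of 36 pairs.

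For the other genes the intervals were wide. The 95% interval of the log2 fold change in IR-Ori against IR ran from -2.17 to 1.13 for Saa1 and from -2.58 to 1.40 for Saa2, so that differences of more than 2-fold in either direction lie inside both. It ran from -1.11 to 0.52 for Orm1, from -1.72 to 1.30 for Orm3 and from -1.61 to 1.69 for Lcn2. For Saa4 it ran from -0.21 to 1.49 around a value of 0.64. The narrowest intervals were those of Hp, from -0.75 to 0.52, and Hpx, from -0.81 to 0.46. Lcn2 had a value of 0.038, which became -0.084 with library totals in place of TMM scaling and -0.57 with limma on log2(FPKM + 1), so that it has no stable direction. No difference was detected for these genes, which at this spread between libraries does not show that the groups are alike.

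**Figure D3:**
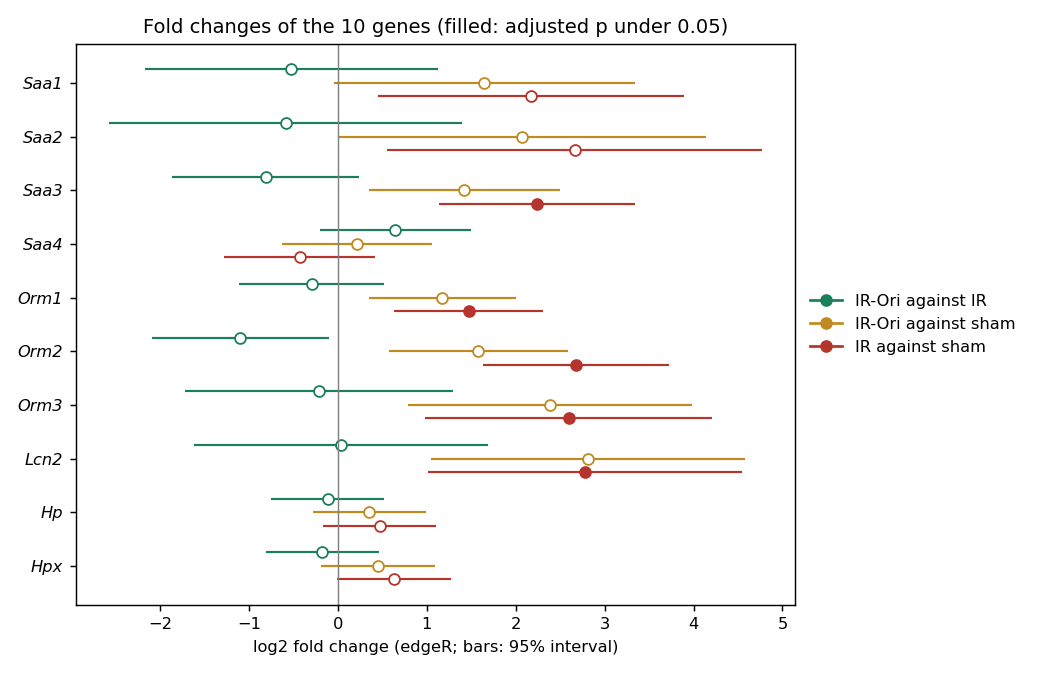
Points are log2 fold changes of each gene from edgeR and bars are 95% intervals, for IR-Ori against IR, IR-Ori against sham and IR against sham, with filled points where the adjusted p is under 0.05. Filled points appear for Saa3, Orm1, Orm2, Orm3 and Lcn2 in IR against sham alone, and in IR-Ori against IR the interval of Orm2, from -2.09 to -0.11, is the only one that leaves out 0.

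Set against sham, the IR-Ori livers had positive log2 fold changes for all 10 genes, with a median of 1.50 beside -0.012 over all genes tested. No gene was called in that comparison by edgeR, neither among the 10 nor among all genes (0% higher and 0% lower), although 1460 genes had an unadjusted p under 0.05. DESeq2 called 38 genes there and limma called 0, and neither called any of the 10. By edgeR, 6 of the 10 were higher at an unadjusted p under 0.05 (Saa2, Saa3, Orm1, Orm2, Orm3 and Lcn2), beside 6.34% of all genes tested. Lcn2 had a log2 fold change of 2.81 ± 0.85 in IR-Ori against sham, with an adjusted p of 0.446. The value for Orm3 was 2.39 ± 0.77, with the same adjusted p, and that for Orm2 was 1.58 ± 0.48. Saa1 and Saa2 had 1.65 ± 0.81 and 2.07 ± 0.99, with an adjusted p of 0.498 each. IR-Ori and IR were both set against the same 6 sham libraries, so these values and those of IR against sham are not independent.

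Within each group, the 10 genes tended to be low or high in the same libraries. In FPKM, IR-Ori 6 was the lowest IR-Ori library for all 10 genes. Its mitochondrial share, 32.0%, was the largest of the group, which lowers the FPKM of nuclear genes. Per count on nuclear genes, Saa4 was slightly lower in IR-Ori 1. IR 5 was the lowest IR library for 8 of the 10, and IR 6 for the remaining Orm3 and Lcn2. Sham 6 was the highest sham library for 7 of the 10. Deviations of log2 CPM from the group means were positively related in all 45 pairs of the genes over the 18 libraries, with Pearson's r from 0.32 (Orm3 and Hp) to 0.97 (Saa1 and Saa2) and a median of 0.75. Over all pairs of genes tested, 49.8% were positive. These r values are descriptions, since the genes share libraries and depth.

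IR-Ori 5 was the next lowest of its group, after IR-Ori 6, for Saa3, Orm1, Orm2, Orm3, Lcn2, Hp and Hpx. Saa1 and Saa2 summed to 52.3 FPKM in IR-Ori 6, against 404 to 2120 FPKM in the other 5 IR-Ori libraries. In IR-Ori 5 and IR-Ori 6, Orm3 had 4.58 and 3.95 FPKM, and in the other 4 it had 31.5 to 80.2 FPKM. The summed FPKM of 12 neutrophil markers was also lowest in these libraries, 7.78 in IR-Ori 5 and 14.4 in IR-Ori 6, against 26.6 to 64.7 in the other IR-Ori libraries. Their mitochondrial shares were 14.1% and 32.0%, the lowest and the highest of the group. Whether these values play a part in the low levels was not tested. Without IR-Ori 6, the log2 fold change of Orm2 in IR-Ori against IR was -0.87 (adjusted p = 0.269), that of Saa3 was -0.57 and that of Saa1 was -0.26, and none of the 10 genes was called.

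**Figure D4:**
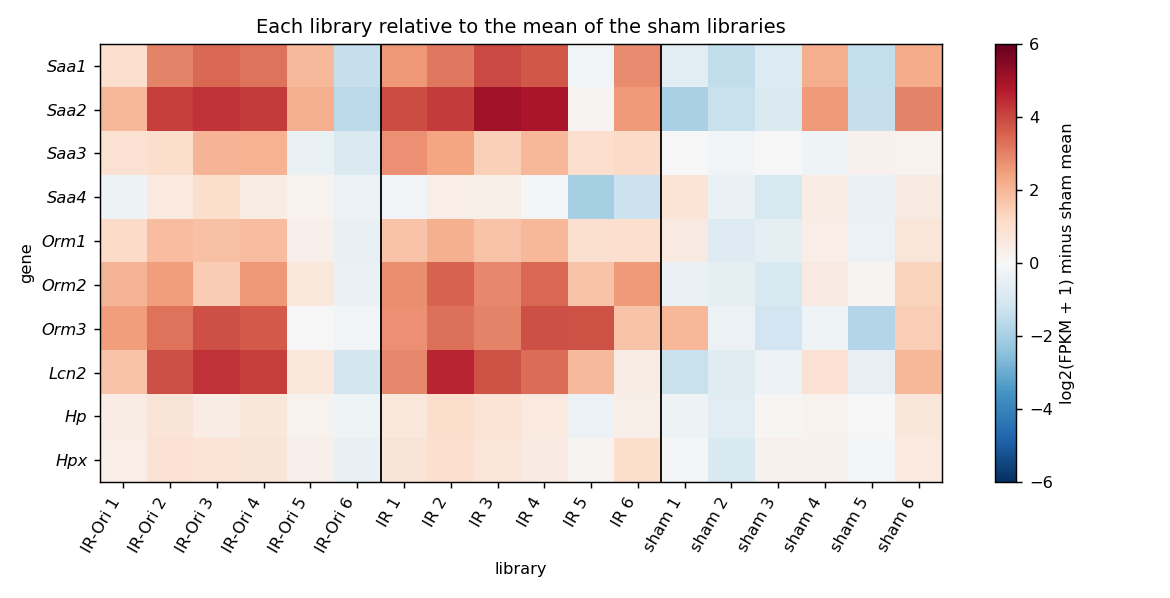
Rows are the 10 genes, columns are the libraries of IR-Ori, IR and sham, and color is log2(FPKM + 1) minus the mean of the 6 sham libraries. Column IR-Ori 6 is at or below the sham mean for each gene and IR 5 is pale for Saa1 and Saa2, while sham 4 and sham 6 stand out in the same genes.

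The mitochondrial share varied within groups, and its relation to the 10 genes was fitted as a covariate across all genes. Of all genes tested, 19.9% were called higher and 23% lower with a larger share at a given group. None of the 10 was called in either direction. The smallest p was that of Saa3, with a log2 change of 0.41 ± 0.19 for each 10 percentage points of share (adjusted p = 0.0786, edgeR). With the share in the model, the same 5 genes were called in IR against sham. The model without the share was also fitted to the libraries on each side of 15%. The IR-Ori libraries of that side stayed in the model, IR-Ori 5 alone under 15%, so these fits do not rest on sets of equal size. Within the 6 IR and sham libraries with a share of 15% or more, 0 of the 10 were called, where 14 genes in all were called, each of them higher (0.0959% of those tested). Within the 6 under 15%, 2 of the 10 were called (Saa3 and Orm2), where 1546 genes in all were called, 6.79% of those tested being called higher. The log2 fold change of Orm2 was 2.55 in the libraries of 15% or more and 2.85 in those under 15%, and that of Saa3 was 2.50 and 1.77.

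Cells other than hepatocytes can make Saa3 and Lcn2, and markers of some of these cells differed between the groups. Summed FPKM of 12 neutrophil markers ranged from 7.78 to 64.7 in IR-Ori, from 69.6 to 316 in IR and from 4.07 to 27.1 in sham. All 9 neutrophil markers that could be tested rose in IR against sham, and 2 of them (S100a9 and Clec4d) fell in IR-Ori against IR. S100a8 and S100a9, the calprotectin subunits, averaged 8.73 and 16.0 FPKM in IR-Ori, 33.7 and 71.7 FPKM in IR, and 3.10 and 5.69 FPKM in sham. Together S100a8 and S100a9 made up most of the neutrophil sums on average in each group. The granule genes Camp, Ngp and Ltf, made early in neutrophil development, were at most 0.34 FPKM in any library. Of 8 markers of monocytes and recruited macrophages, 7 were tested, 6 rose in IR against sham and 6 fell in IR-Ori against IR. Their sums were 10.4 to 25.7 FPKM in IR-Ori, 25.1 to 104 FPKM in IR and 6.79 to 27.0 FPKM in sham. Lyz2 made up most of these sums on average and was the tested marker not called in IR against sham (adjusted p = 0.108, edgeR). The 9 Kupffer cell markers gave no call in any comparison. Of 6 adipocyte markers, with sums of 1.36 to 7.40 FPKM in IR-Ori, 5.30 to 26.0 FPKM in IR and 0.54 to 3.28 FPKM in sham, Fabp4 alone could be tested and rose in IR against sham. Fabp4 averaged 3.03 FPKM in IR-Ori, 10.6 FPKM in IR and 1.35 FPKM in sham, and made up most of these sums on average. The adipocyte markers Adipoq and Lep were listed at 0 in all IR-Ori and sham libraries and in 4 and 5 of the 6 IR libraries. The part of these cells in the levels of Saa3 and Lcn2 was not tested.

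Neutrophil markers and Lcn2 did not run in parallel in every library. In IR-Ori, Lcn2 averaged 213 ± 196 FPKM, against 226 ± 182 FPKM in IR (SD, n = 6 each). The neutrophil sums of these groups did not overlap in FPKM. Their nearest values were 64.7 in IR-Ori 2 and 69.6 in IR 6, at mitochondrial shares of 31.0% and 6.52%. With mitochondrial counts left out of the total, the sums of IR-Ori 2 and IR-Ori 3 lay above that of IR 6, so the ranges overlap. IR-Ori 4 had a neutrophil sum of 26.6 FPKM and 395 FPKM of Lcn2, and sham 6 had a sum of 27.1 FPKM and 87.6 FPKM of Lcn2. IR 6 had a sum of 69.6 FPKM and 29.0 FPKM of Lcn2. Orm2 and Saa3 had lower means in IR-Ori (132 and 8.09 FPKM) than in IR (292 and 14.2 FPKM), as the neutrophil sums did, and neither gene was called. The relation of the neutrophil sum to these genes was not tested.

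**Figure D5:**
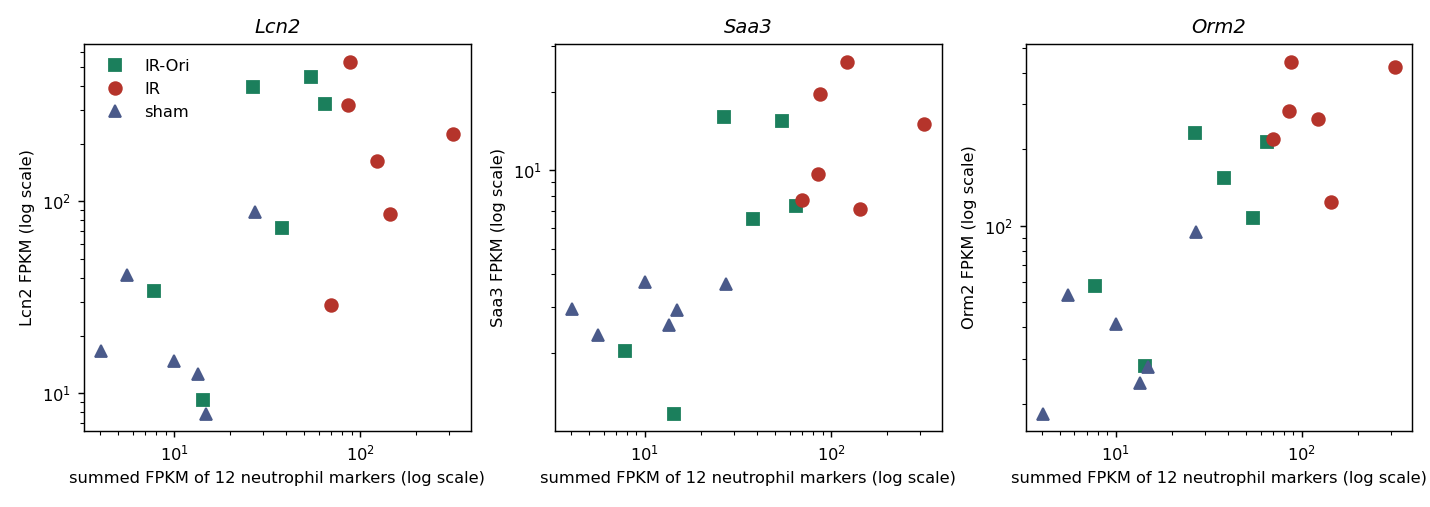
The summed FPKM of 12 neutrophil markers (horizontal, log scale) is set against FPKM of Lcn2, Saa3 and Orm2 (vertical, log scale), with 1 point for each library of IR-Ori, IR and sham. IR-Ori sums lie between 7.78 and 64.7 and IR sums between 69.6 and 316, apart only with mitochondrial counts in the FPKM total. The Lcn2 ranges overlap, at 9.28 to 446 FPKM in IR-Ori and 29.0 to 535 FPKM in IR.

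Genes whose log2 CPM ran most like those of Saa1, Orm2 and Lcn2 over the 18 libraries mostly differed between the 3. Serpina3n was among the closest to both Saa1 and Lcn2. Outside the 10 genes, the closest to Saa1 by Pearson's r were Serpina3n (0.92), a serine protease inhibitor, Itih4 (0.90), an inter-alpha-trypsin inhibitor chain, Fgb (0.90), the fibrinogen beta chain, and Pspc1 (0.88), a paraspeckle protein. For Orm2 they were Smad7 (0.87), an inhibitor of TGF-beta signaling, the chemokine receptor Ccr1 (0.86), the myeloid lectin Clec4d (0.86) and the membrane protein Tmem125 (0.86). For Lcn2 they were Syt12 (0.95), a synaptotagmin, the metallothionein Mt1 (0.92), Serpina3n (0.92) and the zinc finger gene Zfp9 (0.91). All are descriptions over libraries that share groups and depth. Serpina3n averaged 372 ± 243 FPKM in IR-Ori, 393 ± 128 FPKM in IR and 180.2 ± 107 FPKM in sham, and was not called in IR against sham (adjusted p = 0.183). Syt12, with 4.05 ± 3.57 FPKM in IR-Ori, 5.12 ± 3.77 FPKM in IR and 0.41 ± 0.16 FPKM in sham, rose in IR against sham by a log2 fold change of 3.52 ± 0.77 (adjusted p = 0.0103). Ccr1 and Clec4d, the last of which is also in the neutrophil list, were called lower in IR-Ori than in IR, by log2 fold changes of -2.34 ± 0.56 and -2.37 ± 0.55 (adjusted p = 0.0273 and 0.0242, edgeR).

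Upstream of the 10 genes, the cytokine and receptor list had 23 of 26 genes tested, of which 7 rose and 0 fell in IR against sham, and 0 rose and 2 fell in IR-Ori against IR. Il1b, which encodes interleukin-1 beta, averaged 1.89 ± 0.71 FPKM in IR-Ori, 8.59 ± 4.96 FPKM in IR and 1.40 ± 0.71 FPKM in sham. It rose by a log2 fold change of 2.62 ± 0.45 in IR against sham (adjusted p = 0.00216) and fell by 2.18 ± 0.44 on the log2 scale in IR-Ori against IR (adjusted p = 0.0117, edgeR). Jak2, a kinase of gp130 signaling, fell by 0.87 ± 0.22 on that scale in IR-Ori against IR (adjusted p = 0.0312) and rose by 0.92 ± 0.22 in IR against sham (adjusted p = 0.0142). Tnfrsf1a, the main receptor of tumor necrosis factor, and Osmr, the oncostatin M receptor, rose in IR against sham by 0.93 ± 0.22 and 1.24 ± 0.34 and were not called between IR-Ori and IR. Jak1 and Il6st, which encodes gp130, were called in neither comparison, with adjusted p-values of 0.0805 and 0.120 in IR-Ori against IR. The difference between the fold changes of Il1b and of the 10 genes was not tested.

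Other positive acute phase proteins made a list of 29 genes, of which 28 were in the table and 27 were tested. In IR against sham 4 rose and 0 fell, and in IR-Ori against IR 0 rose and 3 fell. Cd14, a co-receptor for lipopolysaccharide, averaged 4.16 ± 3.47 FPKM in IR-Ori, 15.5 ± 7.01 FPKM in IR and 1.22 ± 0.64 FPKM in sham, and rose by 3.60 ± 0.55 on the log2 scale in IR against sham. Cd14, the interleukin-1 receptor antagonist Il1rn and the serpin Serpina3f were the 3 that fell in IR-Ori against IR, with log2 fold changes of -1.83 ± 0.51, -1.57 ± 0.38 and -2.27 ± 0.57. Serpina3m and the complement gene C4b were called in no comparison. The median log2 fold change of the 27 genes was -0.08 in IR-Ori against IR and 0.40 in IR against sham, beside -0.25 and 2.204 for the 10 genes.

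Receptors, partners and clearance genes of the 10 proteins had 18 of 19 genes tested, of which 3 rose and 0 fell in IR against sham, and 1 fell in IR-Ori against IR. Heme oxygenase Hmox1, which degrades the heme that hemopexin delivers, averaged 33.3 ± 26.4 FPKM in IR-Ori, 143 ± 173 FPKM in IR and 13.6 ± 12.9 FPKM in sham. It rose by 3.21 ± 0.71 on the log2 scale in IR against sham (adjusted p = 0.0103, edgeR), and its value of -1.88 ± 0.67 in IR-Ori against IR was not called (adjusted p = 0.107). Tlr2, a receptor that serum amyloid A can engage, rose by 1.68 ± 0.38 in IR against sham and fell by 1.76 ± 0.38 in IR-Ori against IR. Mmp9, the gelatinase that binds lipocalin 2, rose by 1.88 ± 0.54 in IR against sham at 0.17, 0.43 and 0.11 FPKM on average in IR-Ori, IR and sham. The formyl peptide receptor Fpr2, the ferritin heavy chain Fth1 and Lrp1, the receptor of heme-hemopexin complexes, were called in no comparison.

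Negative acute phase proteins, whose plasma levels fall while the others rise, had 10 of 11 genes in the table and tested. Only Igf1 was called, and it fell by 0.84 ± 0.23 on the log2 scale in IR against sham (adjusted p = 0.0326, edgeR), with 72.0 ± 15.1 FPKM in IR-Ori, 49.3 ± 15.4 FPKM in IR and 84.8 ± 8.67 FPKM in sham. Albumin (Alb) had a log2 fold change of -0.42 ± 0.32 and the glucocorticoid carrier Serpina6 of -1.79 ± 0.56, with adjusted p-values of 0.462 and 0.0535. Apoa4, Rbp4 and Fetub, which encode apolipoprotein A-IV, retinol binding protein and fetuin-B, were called in no comparison. No gene of the 4 lists was called in IR-Ori against sham.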

How the data were processed

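Bulk RNA libraries of mouse liver were compared in 3 groups of 6 (IR-Ori, IR and sham). Per the submitters' processing notes, cutadapt 1.9.1, HISAT2 2.2.1, DESeq2 and the build GRCm39 were used. No source used here gives the counting tool, its strand setting, the annotation or the read length. The authors deposited whole-number counts per gene, not scaled, and FPKM. Counts divided by exonic size and by the library total, mitochondrial counts included, returned 100% of the deposited FPKM within 0.0051, so FPKM of nuclear genes fall where the mitochondrial share rises. No libraries of a group agreed within sampling noise (lowest chi-square per gene 16.0).

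Tests used edgeR 4.0.16 (R 4.3.3) on the counts (filterByExpr, minimum count 10, minimum total 15, TMM scaling, quasi-likelihood F test, two-sided, 1 model over 18 libraries, 15 residual degrees of freedom). The common biological coefficient of variation was 0.398. Standard errors are the log2 fold change over the square root of F, and intervals cover 95%. The planned test for values without counts, limma on log2(FPKM + 1), became an alternative (limma 3.58.1, 11326 genes that reach an FPKM of 1 in 6 or more libraries). DESeq2 1.42.0, other scalings, no filter, a replicate block, the mitochondrial share as covariate and leaving out each library were also tried. The edgeR script was tested on simulated data.

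All 10 acute phase genes are named. From each of 4 lists of related genes the text names the 4 with the smallest p in IR against sham and 2 further ones with the smallest p in IR-Ori against IR, and for Saa1, Orm2 and Lcn2 the 4 other genes with the highest Pearson's r. Of the genes so chosen, 1 is not reported here. These genes and the lists were chosen with earlier results of these data known. Saa5 and Tf were not matched in the table. Promoters are RefSeq, GRCm38.p6, matched by symbol for 8 of the 10 genes, and transcripts are GENCODE M21. Saa1 and Saa2 or Orm sequences were aligned globally.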

Additional observations from a re-analysis of the deposited data

Results flagged for a closer look

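The level of Saa1 in IR 5 stood apart from the other IR libraries. It was 83.8 FPKM, and the gap to the nearest of the other 5 on the log2(FPKM + 1) scale was 0.670 of the whole range of the group, above Dixon's 95% critical value for 6 samples. In FPKM the gap was 0.350 of the range, below that value. This was 1 of 30 groups examined (10 genes in IR-Ori, IR and sham), and chance gives about 1 in 20. Saa2 was also lowest in IR 5, at 59.2 FPKM. In the same library the 12 neutrophil markers summed to 143.6 FPKM and the mitochondrial share was 9.65%. Without IR 5 the log2 fold change of Saa1 in IR against sham was 2.41 (adjusted p = 0.0932, edgeR).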

How the results depend on the processing

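Calls over all genes in IR against sham, 1151 as reported, numbered 1818 with DESeq2, 1875 with the mitochondrial share as covariate, 594 and 602 with limma on log2(FPKM + 1) and log2(FPKM + 0.1), and 644 with the replicate number as a block. In IR-Ori against IR, 526 as reported, they numbered 1335, 290, 133, 104 and 163 under the same settings in that order, and 172 with only these groups in the fit. In IR-Ori against sham DESeq2 called 38 genes. Of the 10 acute phase genes, 5 were called in IR against sham, 1 with the replicate block (Orm2), 0 in libraries with a mitochondrial share of 15% or more and 2 in those under 15%, settings added after seeing the data, with fewer samples. Those of 15% or more called 14 genes in IR against sham and 12 in IR-Ori against IR. With 1 library left out, calls ranged from 567 to 1553 in IR against sham, from 173 to 1055 in IR-Ori against IR and stayed at 0 in IR-Ori against sham. Acute phase genes called ranged from 2 to 5 in IR against sham and were 0 in the other comparisons under every setting run. Same-numbered libraries had r of deviations from -0.44 to 0.42 over 18 pairs, 6 of them over 0.1 and 4 best with their own number. In IR-Ori against IR alone r ran from 0.012 to 0.42. These values do not show that the numbers pair the samples, and they cannot exclude it. Among 880 values of the 10 genes, 818 kept direction and side of the threshold, 43 lost a call, 1 gained it and 18 changed sign. Sign changes in IR-Ori against IR were those of Lcn2 (-0.084 without TMM, -0.30 with the block, -0.34 with the covariate, -0.57 and -0.59 with limma, -0.32 in libraries of 15% or more, -0.32 to 0.45 with 1 library left out), Orm3 (0.16 in libraries of 15% or more, -0.52 to 0.042 with 1 left out) and Hp (-0.27 to 0.0099 with 1 left out). Saa4 changed sign in IR against sham (0.18 in libraries of 15% or more) and in IR-Ori against sham (-0.015 to 0.39 with 1 left out). All of these were uncalled, and the cause was not tested.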

Other observations

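Markers of other liver cell types gave few calls beside those described for myeloid cells. Sox9, a transcription factor of bile duct cells, averaged 1.14 FPKM in IR-Ori, 10.7 FPKM in IR and 0.73 FPKM in sham. It ran from 1.75 to 41.7 FPKM in IR and from 0.42 to 1.06 FPKM in sham, so the IR mean rests largely on the highest library. Sox9 rose in IR against sham (log2 fold change 3.88, adjusted p = 0.00231, edgeR) and fell by 3.24 on the log2 scale in IR-Ori against IR (adjusted p = 0.0114). The other bile duct markers tested, Krt7, Krt19, Epcam and Spp1, were called in no comparison. Of 6 markers of sinusoidal endothelial cells, Pecam1 and Lyve1 rose in IR against sham, by 0.97 and 2.46 on the log2 scale, and of 6 markers of stellate cells Pdgfrb rose by 1.07. The 5 erythroid markers, hemoglobin genes among them, summed to 66.2 to 106 FPKM in IR-Ori, 100.03 to 356 FPKM in IR and 23.6 to 264 FPKM in sham, and none was called.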
